A study of Mus musculus with 6 samples.

Results

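The comparison of vehicle-treated P301S Tau mice with vehicle-treated WT mice was made in the prefrontal cortex (PFC) of 6-month-old animals, with 2 Tau libraries and 2 WT libraries of the 6 in the series. The members were chosen by genotype and treatment alone, and the 2 libraries of UNC0642-treated Tau mice entered no difference. They served to estimate the spread, and they also entered the filter on low counts, the scaling and the grouping of genes by level. The Tau animals were PS19(P301S) mice, which carry human tau of the 1N4R isoform with the P301S mutation under the mouse Prnp promoter, and the WT animals were (C57BL/6 x C3H) mice. The paper places the Tau mice on a background of the same strains and states that WT and Tau littermates of both sexes were used. Both groups had received saline with a little DMSO by injection on consecutive days. Each library came from the whole tissue of a separate mouse, so neurons, glia and vessels contributed to every value, and fewer cells of a type cannot be told apart from less RNA per cell. RNA was depleted of ribosomal RNA and sequenced as stranded libraries, and reads were counted per gene. Autosomes held 49450 of the 54429 genes counted, and 19549 of these had enough counts to be tested, out of 20409 tested genes in all.

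Tau is a microtubule-associated protein of axons, and the P301S mutation makes it prone to aggregate into the filaments that define frontotemporal dementia with tau deposits. In PS19 mice the transgene is expressed in neurons across the brain and spinal cord, and hyperphosphorylated tau, loss of synapses and glial activation follow over months. The prefrontal cortex holds the layered circuits that support working memory, and its neurons respond to activity by a rapid wave of transcription, the immediate early genes.

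The library labelled WT replicate 1 went against its group in several ways, and the counts of calls, the gene classes and the gene lists below are therefore given with and without it. Levels are CPM, a gene's counts relative to the total of its library after TMM scaling. Prnp, whose promoter drives the transgene, was at 1652 CPM in the library labelled WT replicate 1 and at 873 CPM in WT replicate 2, against 1552 and 1470 CPM in the Tau libraries. Mapt, the mouse tau gene, was at 576, 449, 613 and 589 CPM in the same order. For both genes the library labelled WT replicate 1 lay beside the Tau libraries and WT replicate 2 stood below them, and the log2 difference of Prnp between Tau and WT was 0.26 with all libraries and 0.79 without the library labelled WT replicate 1. That library had 5 counts of Xist and 2411 of Ddx3y, while WT replicate 2 had 8107 and 8, and both Tau libraries had at least 4104 counts of Xist and at most 18 of Ddx3y. Both UNC0642-treated Tau libraries were like the library labelled WT replicate 1 in these genes, with 2 and 4 counts of Xist, 1705 and 2241 of Ddx3y, and Prnp at 1548 and 1694 CPM. A difference in sex between the WT animals cannot be told apart from other differences between them, and whether the library labelled WT replicate 1 held RNA of another animal or of other tissue was not tested. Every WT mean and every difference from all libraries rests in part on it.

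Genes of the olfactory bulb and of olfactory sensory neurons also stood out in the library labelled WT replicate 1. These 14 genes were chosen after their values were seen and get no test. Omp, which marks mature olfactory sensory neurons, was at 67.5 CPM there and at 0.31, 0.36 and 0.17 CPM in WT replicate 2, Tau replicate 1 and Tau replicate 2. Th, the rate-limiting enzyme of dopamine synthesis, was at 27.6 CPM against 1.25, 2.65 and 1.89 CPM, and Cdhr1 at 56.9 CPM against 4.14, 5.22 and 2.40 CPM. The summed level of the 12 tested genes was 299 CPM in the library labelled WT replicate 1 and 23.4 to 27.1 CPM in the others. Without that library the median log2 difference of these genes moved from −2.70 to 0.05.

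A second library, Tau replicate 2, carried more RNA of oligodendrocytes and of striatal neurons. The 17 tested genes of mature oligodendrocytes and myelin summed to 2315 and 1194 CPM in the WT libraries, and to 1661 and 4427 CPM in Tau replicates 1 and 2. The 11 tested genes of striatal projection neurons summed to 325, 334, 367 and 530 CPM in the same order. In both lists Tau replicate 1 lay within or close to the WT libraries and Tau replicate 2 far above them. The cortical markers did not separate the groups: the 16 genes of excitatory neurons and cortical layers summed to 1958 and 2205 CPM in WT and 2286 and 2047 CPM in Tau libraries. Total counts ranged from 17690811 to 28972176 in the 4 libraries, so that a floor of 3 counts stood at 0.104 to 0.170 CPM.

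**Figure D1:**
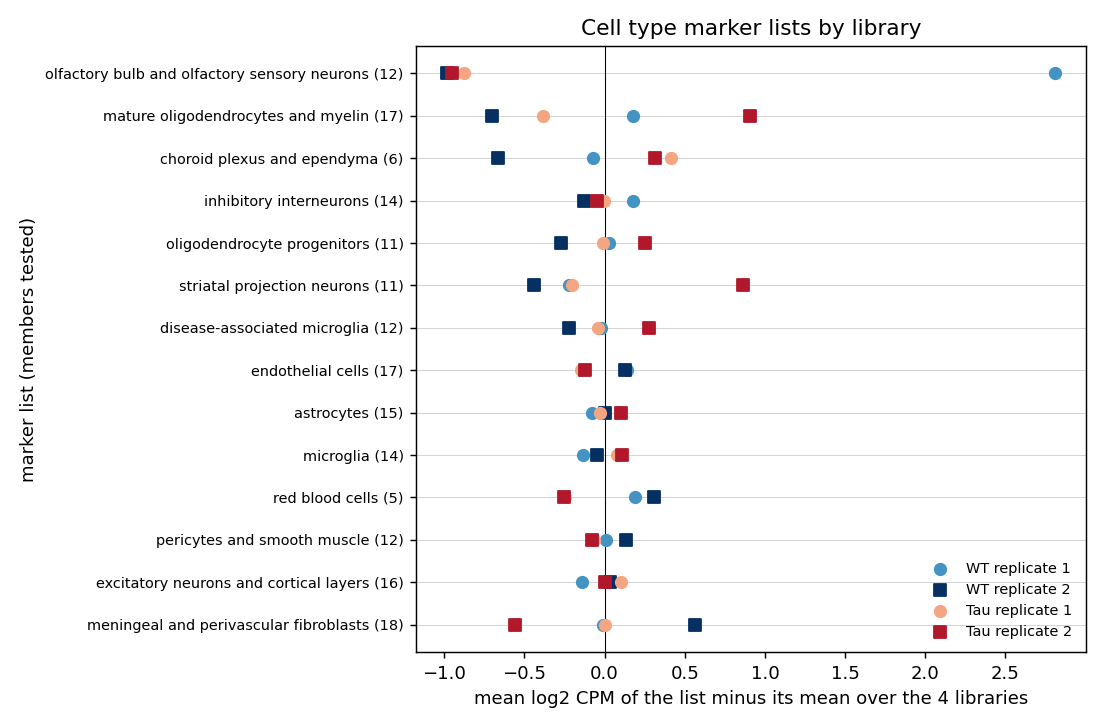
Mean level of each cell type marker list in the 4 libraries, as mean log2 CPM over tested members minus the mean of the 4 libraries (x axis), with 1 point per library and the number of tested members in brackets. Olfactory genes are high only in the library labelled WT replicate 1 among these 4, and myelin and striatal genes are highest in Tau replicate 2. Both WT libraries lie above both Tau libraries for endothelial cells, for pericytes and smooth muscle and for red blood cells. They lie below both Tau libraries for microglia, for striatal projection neurons and for choroid plexus and ependyma.

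Few single genes differed once all tested genes were accounted for, and whether more rose or fell depended on the filter and on WT replicate 2. With edgeR's quasi-likelihood test and Benjamini-Hochberg adjustment over all genes, 23 autosomal genes rose and 6 fell in Tau mice at an adjusted p under 0.05. With no filter on low counts 279 rose and 348 fell, without WT replicate 2 the counts were 50 and 77, and with the 4 libraries alone 2 rose and 2 fell. Over all genes tested 0.122% were higher and 0.0343% lower by the adjusted rule with all libraries. At the threshold of the study, an unadjusted p under 0.05 with a fold change of at least 1.2, 731 autosomal genes were called higher and 1198 lower, where 3.72% and 6.1% of all genes tested were called. Calls of this kind carry no correction for the number of genes, and "called" is used below for them alone, while "rose" and "fell" are kept for the adjusted test. The genes called higher differed by less, with a median log2 difference of 0.41 against a median size of 0.97 among those called lower, and 48.2% of them were in the highest tertile of expression, against 9.43% of those called lower. Scaling by library size alone, with no TMM, turned the split to 402 higher and 1684 lower, with the median of all genes at −0.07.

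Without the library labelled WT replicate 1, the counts were 867 autosomal genes called higher and 924 called lower (4.47% and 4.66% of all genes tested). Of the 731 genes called higher with all libraries, all 731 kept their sign and 454 (62.1%) were called again. Of the 1198 called lower, 1187 kept their sign and 594 (49.6%) were called again. In 89 of these 1198 genes the library labelled WT replicate 1 was at least 2-fold above WT replicate 2, and in 21 it was the reverse. All 29 genes past the adjusted threshold were called in the same direction without that library, and 8 of them remained at an adjusted p under 0.05. A stricter group, called the same way with all libraries and in each of the 4 fits that left 1 library out, held 219 autosomal genes higher and 209 lower, where 1.1% and 1.06% of all tested genes met this rule. Without Tau replicate 2, 5 autosomal genes rose and 2 fell by the adjusted test. Of the 159 tested autosomal genes named in the text, 31 kept their sign but were not called without the library labelled WT replicate 1, namely Abcb1a, Bdnf, Bmp4, Bmp5, Cd2ap, Cdhr1, Col4a2, Cort, Fzd6, Gjb6, Grin2c, Hdhd3, Kcna4, Kcnj10, Kdm7a, Ltbp2, Nid1, Nid2, Notch3, Omp, Pnoc, Scn4b, Smad3, Srsf5, Stmn4, Tek, Tex47, Tgfbr2, Tmem119, Top2a and Wnt5a. Rps3a1, Th and Ehmt1 changed sign, and Prnp, Mapt and Mbp were called higher without that library and not with all libraries.

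**Figure D2:**
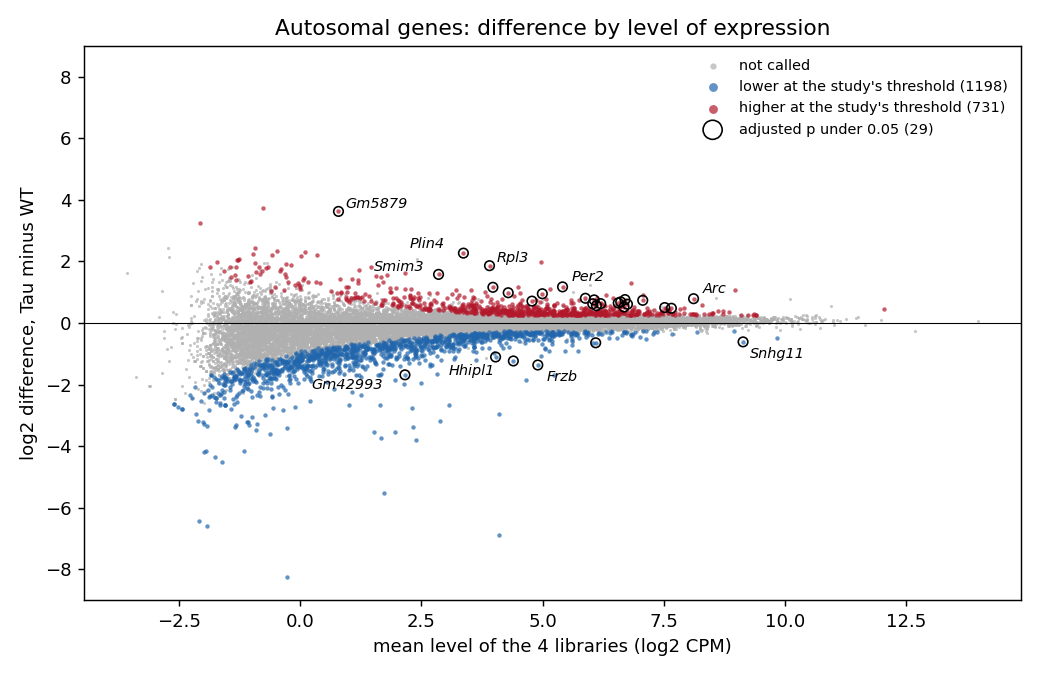
Each point is 1 of 19549 tested autosomal genes, with the mean level of the 4 libraries in log2 CPM (x axis) and the fitted log2 difference, Tau minus WT (y axis). Blue points are the 1198 genes called lower, red points the 731 called higher and rings the 29 with an adjusted p under 0.05; the blue points spread widest at low levels, and most rings lie among well expressed genes above 0.

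The 6 genes that fell included Hhipl1 and Frzb, which encode secreted proteins, and Cldn5, a gene of the vessel wall. Hhipl1, a secreted relative of the Hedgehog-interacting protein, is encoded at chr12:108306270-108330869 on the + strand (GRCm38). It was at 30.67 and 28.47 CPM in the WT libraries and at 13.12 and 12.02 CPM in the Tau libraries, a log2 difference of −1.23 ± 0.12 (SE; edgeR, adjusted p = 0.0082). Frzb, a secreted frizzled-related protein that binds Wnt ligands, at chr2:80411970-80447625 on the − strand, was at 38.7 and 47.5 CPM in WT and at 18.2 and 15.2 CPM in Tau libraries (−1.36 ± 0.14, edgeR, adjusted p = 0.00861). For both genes every Tau library was below every WT library, and the difference was −1.18 and −1.50 without the library labelled WT replicate 1. Cldn5, the main tight junction protein of brain endothelium, was at 26.1 and 18.5 CPM in WT and 10.5 and 10.3 CPM in Tau libraries (−1.10 ± 0.17, edgeR, adjusted p = 0.0467). Its WT libraries differed from each other more than the Tau libraries did, and the difference was −0.84 without the library labelled WT replicate 1. Ccdc85c, a junction protein of the developing cortical wall, lay 0.103 Mb from Hhipl1 on chromosome 12 and fell from 78.7 and 87.9 CPM to 53.9 and 53.0 CPM (−0.64 ± 0.09). Snhg11, a host of small nucleolar RNAs that the annotation lists as protein-coding, fell from 680 and 679 CPM to 412 and 478 CPM (−0.61 ± 0.09). The sixth, Gm42993, is taken up with the noncoding genes.

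Of the 23 genes that rose, 4 were on the list of immediate early genes, namely Nr4a3, Arc, Egr1 and Ier5. Nr4a3, an orphan nuclear receptor of the immediate early class at chr4:48045153-48086447 on the + strand, was at 22.9 and 20.6 CPM in WT and at 42.7 and 41.4 CPM in Tau libraries, a log2 difference of 0.95 ± 0.11 (edgeR, adjusted p = 0.014). Arc, which organises endocytosis of AMPA receptors at active synapses, at chr15:74669083-74672570 on the − strand, was at 231 and 175 CPM in WT and 333 and 370 CPM in Tau libraries (0.79 ± 0.12, edgeR, adjusted p = 0.0416). The groups did not overlap for either gene, and the differences were 1.03 and 1.00 without the library labelled WT replicate 1. Egr1, a zinc finger factor induced by synaptic activity, was at 73.6 and 80.7 CPM in WT and 145 and 117 CPM in Tau libraries (0.76 ± 0.12), and Ier5 was at 82.4 and 86.0 CPM against 119 and 123 CPM (0.52 ± 0.08). Outside that list, Ptgs2, the inducible cyclooxygenase, rose by 0.71 ± 0.11 and Irs2, an adaptor of the insulin receptor, by 0.81 ± 0.12, both on the log2 scale. Trib2, a pseudokinase, rose by 0.75 ± 0.09, from 47.7 and 52.0 CPM to 85.6 and 82.3 CPM. Zfp189, a zinc finger factor, rose from 14.2 and 12.2 CPM to 26.9 and 25.1 CPM (0.99 ± 0.12). Zfp189 lay 1.48 Mb from Nr4a3, and Dnajb5 5.1 Mb from it, on chromosome 4.

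Other genes that rose included Per2 and Bhlhe40, repressors of the circadian clock. Per2 was at 20.4 and 31.8 CPM in WT and 56.5 and 61.6 CPM in Tau libraries (1.18 ± 0.17, edgeR, adjusted p = 0.0409). Bhlhe40, also known as Dec1, was at 96.1 and 105 CPM against 183 and 153 CPM (0.74 ± 0.11). Plin4, a coat protein of lipid droplets, was at 3.31 and 3.71 CPM in WT and 12.1 and 22.2 CPM in Tau libraries (2.27 ± 0.32), so that the Tau libraries lay apart from each other but both above WT. Klf9, a factor induced by glucocorticoid and thyroid hormones, had the smallest difference of the 29, 0.48 ± 0.07, with WT libraries at 169 and 168 CPM and Tau libraries at 232 and 238 CPM. Among the rest, Kcnk1 (a 2-pore potassium channel), Paqr8 (a membrane progestin receptor), Sntb2 (a syntrophin), P4ha1 (a collagen prolyl hydroxylase), Ccnd2 (cyclin D2) and Smim3 rose by 0.50 to 1.58 on the log2 scale. The WT and Tau libraries did not overlap in any of the 29 genes, as the plot of these genes by library shows. These genes were chosen by p from the same libraries, so the separation adds no further evidence. It also held in 710 of the 731 genes called higher and in 1161 of the 1198 called lower.

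**Figure D3:**
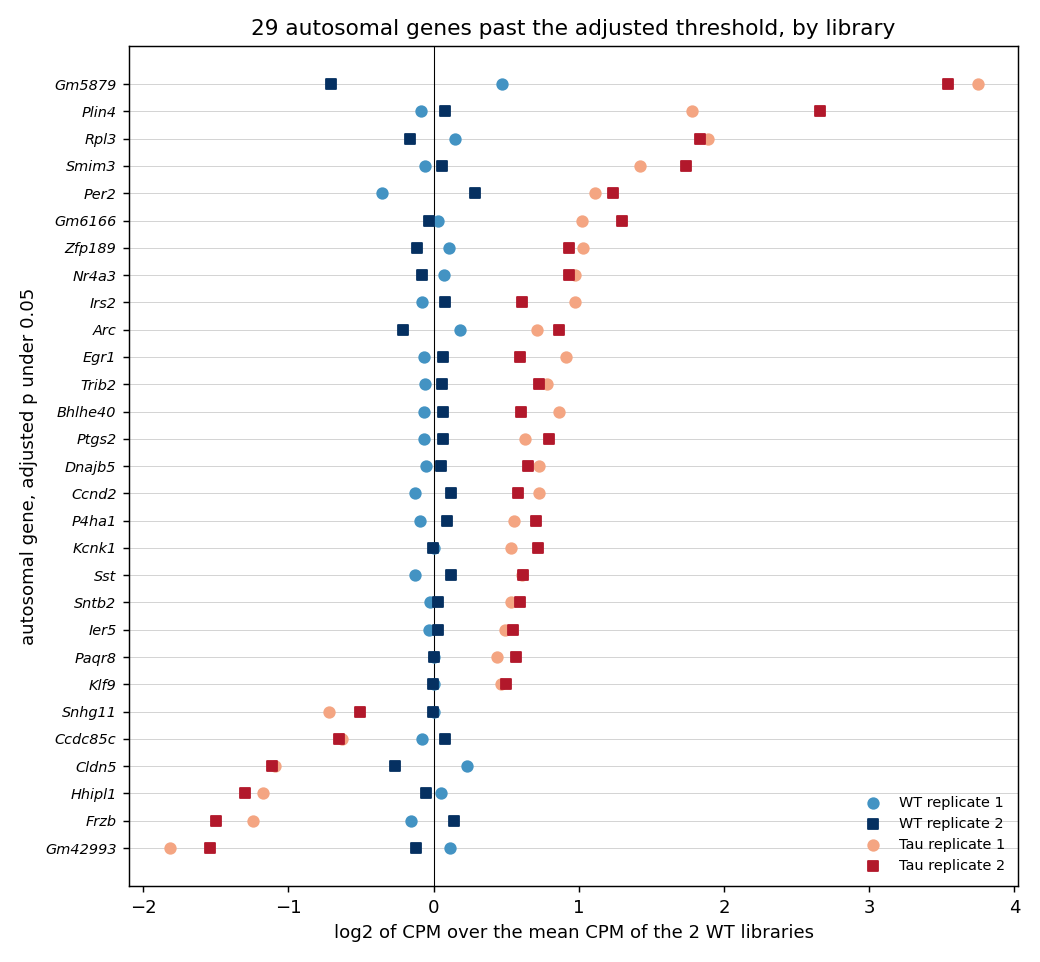
The 29 autosomal genes with an adjusted p under 0.05, each with the log2 of its CPM over the mean of the 2 WT libraries (x axis) and 1 point per library. The Tau points of each gene lie on 1 side of both WT points, by 0.48 to 3.63 in the fitted log2 difference for the genes that rose.

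Sst, the inhibitory neuropeptide somatostatin, was at 77.8 and 92.5 CPM in WT and 130 and 131 CPM in Tau libraries (0.61 ± 0.09, edgeR, adjusted p = 0.0453). Its promoter is the textbook example of a cAMP response element (CRE), the site of the activity-dependent factor CREB. Among the genes that rose and had a RefSeq promoter at hand, Sst alone had this motif, and its promoter is therefore shown. The stretch is from RefSeq (GRCm38.p6), chr16:23890855-23890922 on the − strand, read 5′ to 3′, with the CRE in capitals 40 to 48 bases before the start of transcription.
Sst: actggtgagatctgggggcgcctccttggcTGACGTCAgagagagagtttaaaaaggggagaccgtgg
RefSeq promoters were at hand for 13 of the 23 genes that rose. The motif TGACGTCA was searched on both strands in the 250 bases before the start. It was in 1 of these 13 (7.69%) and in 2.93% of the 12018 promoters of tested genes. Other motifs were searched in the same way. The E-box was in 1 of the 13 (7.69%, against 9.32% of the promoters of tested genes). The heat shock element was in 1 as well (7.69%, against 6.41%). The glucocorticoid response element and the CArG box were in 0 of the 13, against 4.67% and 1.4%. With so few promoters these shares describe the genes and no more.

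Rpl3 stood out among the ribosomal proteins. It was at 7.14 and 5.78 CPM in WT and 24.0 and 23.1 CPM in Tau libraries (1.86 ± 0.21, edgeR, adjusted p = 0.014), whereas the 75 tested genes of cytosolic ribosomal proteins had a median log2 difference of 0.03 and 2 called higher and 3 lower (0.07, 3 and 1 without the library labelled WT replicate 1). A pair of processed pseudogenes, Gm5879 and Gm6166, rose as well. Gm5879 had 0.35 and 0.16 CPM in WT and 3.43 and 2.98 CPM in Tau libraries (3.63 ± 0.47), and Gm6166 had 9.90 and 9.49 CPM against 19.7 and 23.9 CPM (1.16 ± 0.14). Processed pseudogenes share sequence with their parent genes, and how the counting divided such reads was not stated, so the values of Rpl3 and of both pseudogenes are uncertain. Rps3a1, called lower, was at 25.3 CPM in the library labelled WT replicate 1 and at 1.41, 1.61 and 1.32 CPM in the other libraries, and its log2 difference of −3.17 was 0.07 without it.

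The calls divided by level of expression and by gene type. In the tertile of autosomal genes with the lowest mean level (mean log2 CPM up to 1.45), 624 of 6516 genes (9.58%) were called lower and 83 (1.27%) higher. In the highest tertile (above 4.75) the order turned, with 113 of 6516 (1.73%) lower and 352 (5.40%) higher. With the library labelled WT replicate 1 left out, the lowest tertile had 363 (5.57%) called lower and 86 (1.32%) higher, and the highest 176 (2.70%) lower and 477 (7.32%) higher. Of 14179 protein-coding genes 576 (4.06%) were called lower and 651 (4.59%) higher. With a filter of at least 10 counts in every library, 585 of 13049 (4.48%) were called lower and 505 (3.87%) higher. The order of the shares thus turned with the filter. The shares were 3.20% lower and 5.37% higher without the library labelled WT replicate 1, and 6.56% lower and 2.53% higher with scaling by library size alone, so the direction of the split turned with the scaling. Of 5370 genes of other types, 622 (11.6%) were called lower and 80 (1.49%) higher, and without the library labelled WT replicate 1 these were 470 (8.75%) and 105 (1.96%). With all libraries the other types made up 27.5% of tested autosomal genes, 51.9% of those called lower and 10.9% of those called higher.

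The largest share of lower calls was in TEC genes, short transcribed regions that the annotation marks as still to be experimentally checked, with 317 of 1431 (22.2%) called lower, 7 called higher and a median log2 difference of −0.56. Long noncoding RNA genes had 214 of 2160 (9.91%) called lower and 13 higher, and pseudogenes 84 of 1579 (5.32%) lower and 59 (3.74%) higher. With the library labelled WT replicate 1 left out, 152 (7.04%) of the long noncoding RNA genes and 40 (2.53%) of the pseudogenes were called lower, and 73 pseudogenes (4.62%) higher. The share differed by place as well. Genes that were not protein-coding and lay inside or overlapped a protein-coding gene on the same strand were called lower in 323 of 1532 cases (21.1%), those overlapping one only on the opposite strand in 167 of 1694 (9.86%), and those apart from protein-coding genes in 132 of 2144 (6.16%). The 3 shares were 17.2%, 6.97% and 4.10% without the library labelled WT replicate 1. The protein-coding genes that held them did not move with them: 319 such noncoding genes called lower lay in 225 tested host genes, whose median log2 difference was 0.04 against −1.21 for the noncoding genes, and 6 of these hosts were called lower and 3 higher. Whether reads of unspliced host transcripts entered these counts was not tested.

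Gm42993, a TEC gene at chr5:132015610-132022934 on the − strand within Auts2, was at 7.37 and 6.25 CPM in WT and 1.93 and 2.35 CPM in Tau libraries (−1.68 ± 0.26, edgeR, adjusted p = 0.0467). Its host Auts2, a nuclear regulator of neuronal development, was at 41.7, 46.4, 42.1 and 36.6 CPM (−0.16 ± 0.13). Gm37880 (−2.33 ± 0.40) lay within Adgrb3 and Gm44438 (−1.06 ± 0.19) within Ctnna2, and these hosts differed by −0.10 and 0.04. D630033A02Rik, a processed pseudogene apart from other genes, differed by −2.53 ± 0.46. Among genes not annotated as protein-coding, the smallest p-values in the opposite direction were those of Gm5879, Gm6166, Gm13136 (0.81 ± 0.19) and Ighm. Ighm, the constant region of the immunoglobulin M heavy chain, encodes a protein but is annotated as an immunoglobulin constant gene. It was at 7.65 and 17.5 CPM in WT and 44.9 and 55.4 CPM in Tau libraries (1.99 ± 0.33, edgeR, adjusted p = 0.0577).

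The size of this pattern depended on single libraries. TEC genes took 0.321% and 0.371% of the counts in the WT libraries and 0.205% and 0.276% in Tau replicates 1 and 2. The share of TEC genes called lower was 18.1% without the library labelled WT replicate 1, 9.92% without WT replicate 2, 9.22% without Tau replicate 1 and 27.4% without Tau replicate 2. Their median stayed below 0 in these 4 fits, from −0.82 to −0.38. Protein-coding genes had 2.86% to 4.75% called lower in the same fits.

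**Figure D4:**
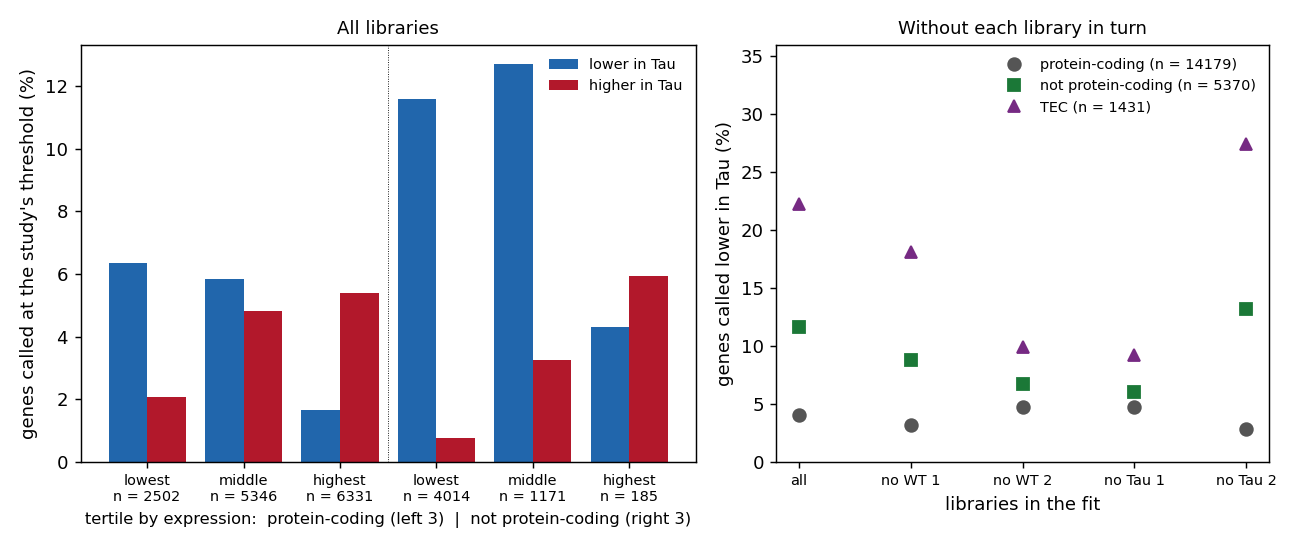
Left, the percent of tested autosomal genes called lower (blue) or higher (red) in Tau mice, in each tertile by expression, for protein-coding genes (left 3 pairs of bars) and all other types (right 3 pairs). Right, the percent called lower with all libraries and without each in turn; TEC genes (triangles) lie above all genes that are not protein-coding (squares), and these above protein-coding genes (circles), in each fit.

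Among protein-coding genes of the lowest tertile, the smallest p-values were those of Adgrg3, Tex47, Cbln1 and Omp on the lower side. Adgrg3, an adhesion receptor, was at 1.38 and 1.56 CPM in WT and 0.43 and 0.40 CPM in Tau libraries (−1.81 ± 0.45). Cbln1, an organiser of parallel fibre synapses, was at 9.11 CPM in the library labelled WT replicate 1, at 3.05 CPM in WT replicate 2 and at 1.72 and 1.60 CPM in Tau libraries, so that its difference of −1.86 was −0.87 without that library. On the higher side were Cthrc1, a secreted collagen repeat protein (1.46 and 0.98 CPM against 4.40 and 4.18 CPM, 1.81 ± 0.33), Pmaip1, a cell death regulator (1.26 and 1.25 against 3.50 and 3.15 CPM, 1.41 ± 0.29), Acaa1b, a peroxisomal thiolase (2.31 ± 0.50), and Prlr, the prolactin receptor (2.34 ± 0.56). None of these 4 passed the adjusted threshold, and each was called again without the library labelled WT replicate 1. Prlr is also on the list of choroid plexus and ependyma genes. The 6 tested genes of that list summed to 6.58 and 4.96 CPM in WT and 9.30 and 8.87 CPM in Tau libraries. Of these 5 lay above 0 and 1 below, and 1 was called higher. Beside the genes that fell, the smallest p-values of genes called lower were those of Hspg2 and Zfp810 (−0.64 ± 0.11) in the middle tertile and of Btg2 and Col6a1 in the highest.

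Functional lists of genes were read by their counts and medians, beside the 3.72% called higher and 6.1% called lower of all genes and a median of all genes close to 0. The stricter rule above also asks for the call in each fit that left 1 library out. By that rule the chaperone, neuropeptide, TGF-beta and BMP, endothelial and basement membrane lists kept only part of the calls given below. Immediate early genes are switched on within minutes of neuronal activity. Of 24 tested, 12 were called higher, namely Fosl2, Egr1, Egr2, Arc, Nr4a1, Nr4a2, Nr4a3, Ier5, Dusp4, Dusp5, Dusp6 and Sik1, and 2 were called lower, with a median log2 difference of 0.30. Their summed level was 1003 and 852 CPM in WT and 1268 and 1264 CPM in Tau libraries, so both Tau libraries lay above both WT libraries. Without the library labelled WT replicate 1 the median was 0.45, with 17 called higher and 1 lower. Btg2, an antiproliferative immediate early gene, went the other way, at 50.5 and 34.1 CPM in WT and 20.7 and 19.6 CPM in Tau libraries (−1.07 ± 0.17, edgeR, adjusted p = 0.0529).

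The chaperones and glucocorticoid-responsive genes that were called were all called higher. Heat shock and ER chaperones fold new or damaged proteins, and 12 of 27 were called higher and 0 lower, with a median of 0.26. Dnajb5, a cochaperone of Hsp70, was the one that rose, from 72.3 and 77.5 CPM to 124 and 118 CPM (0.69 ± 0.08, edgeR, adjusted p = 0.014). Hspa5, the ER chaperone BiP, was at 341 and 337 CPM against 438 and 448 CPM (0.39 ± 0.08), Hsph1 differed by 0.33 ± 0.08 and Sdf2l1 by 0.67 ± 0.16. Of 14 glucocorticoid receptors and response genes 8 were called higher and 0 lower, with a median of 0.56, the highest of the 29 function lists. Fkbp5, a cochaperone of the glucocorticoid receptor, was at 22.3 and 25.0 CPM in WT and 40.3 and 35.3 CPM in Tau libraries (0.68 ± 0.12), and Errfi1, an inhibitor of the EGF receptor, was at 33.0 and 28.1 CPM against 45.4 and 51.9 CPM (0.67 ± 0.12). Sgk1, a kinase induced by glucocorticoids and also made by oligodendrocytes, was at 67.2 and 64.5 CPM in WT, 117 CPM in Tau replicate 1 and 207 CPM in Tau replicate 2 (1.30 ± 0.21), with the higher value in the library rich in myelin genes. Without the library labelled WT replicate 1, 10 of the chaperones and 8 of the glucocorticoid genes were called higher.

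Clock genes and neuropeptides showed the same direction with smaller medians. Of 19 circadian clock genes 6 were called higher and 0 lower, with a median of 0.21. Without the library labelled WT replicate 1, 6 were called higher and the median was 0.12, as it was without Tau replicate 1. Per1 was at 39.3 and 41.1 CPM in WT and 77.8 and 56.9 CPM in Tau libraries (0.75 ± 0.13), and Nr1d2, a repressor of Bmal1, at 156 and 171 CPM against 210 and 224 CPM (0.41 ± 0.09). The time of day at which the tissue was taken was not given in the sources used here. Of 22 neuropeptides, neurotrophins and granins, 9 were called higher and 0 lower (Npy, Sst, Tac1, Penk, Cort, Pnoc, Bdnf, Scg2 and Chga), with a median of 0.23, and 7 without the library labelled WT replicate 1, with the same median. Chga, a granin of dense core vesicles, was at 129 and 119 CPM in WT and 168 and 153 CPM in Tau libraries (0.37 ± 0.08), and Npy at 59.4 and 59.6 CPM against 69.4 and 82.3 CPM (0.35 ± 0.10). Tac1, the precursor of substance P, was at 12.5, 13.7, 18.9 and 26.8 CPM, highest in Tau replicate 2, where striatal genes were high.

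Antioxidant and metallothionein genes had 4 of 23 called higher and 0 lower, and 7 higher and 1 lower without the library labelled WT replicate 1. The metallothioneins Mt1, Mt2 and Mt3, which bind zinc and copper, differed by 0.57 ± 0.11, 0.98 ± 0.19 and 0.31 ± 0.07, and Cat, catalase, by 0.40 ± 0.12. Cell cycle and DNA replication genes had 3 of 19 called higher, namely Ccnd2, Mki67 (2.68 and 2.73 CPM against 4.54 and 5.10 CPM) and Top2a (0.79 and 1.48 against 2.29 and 3.89 CPM). The median of this list moved without the library labelled WT replicate 1 from 0.16 to 0.46, with 3 called higher and 1 lower. Of 10 genes with known copy-number or null variants between mouse strains, 3 were called higher: Alad, Hdhd3 and Bspry, neighbours on chromosome 4. Alad, an enzyme of haem synthesis, was at 31.5 and 28.5 CPM in WT and 43.3 and 46.9 CPM in Tau libraries (0.59 ± 0.10), Bspry at 2.76 and 3.40 against 6.87 and 6.41 CPM (1.11 ± 0.23), and Hdhd3 differed by 0.49 ± 0.16, and 2 genes of the list were called higher without the library labelled WT replicate 1. The part of the C57BL/6 and C3H backgrounds in these values was not tested.

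**Figure D5:**
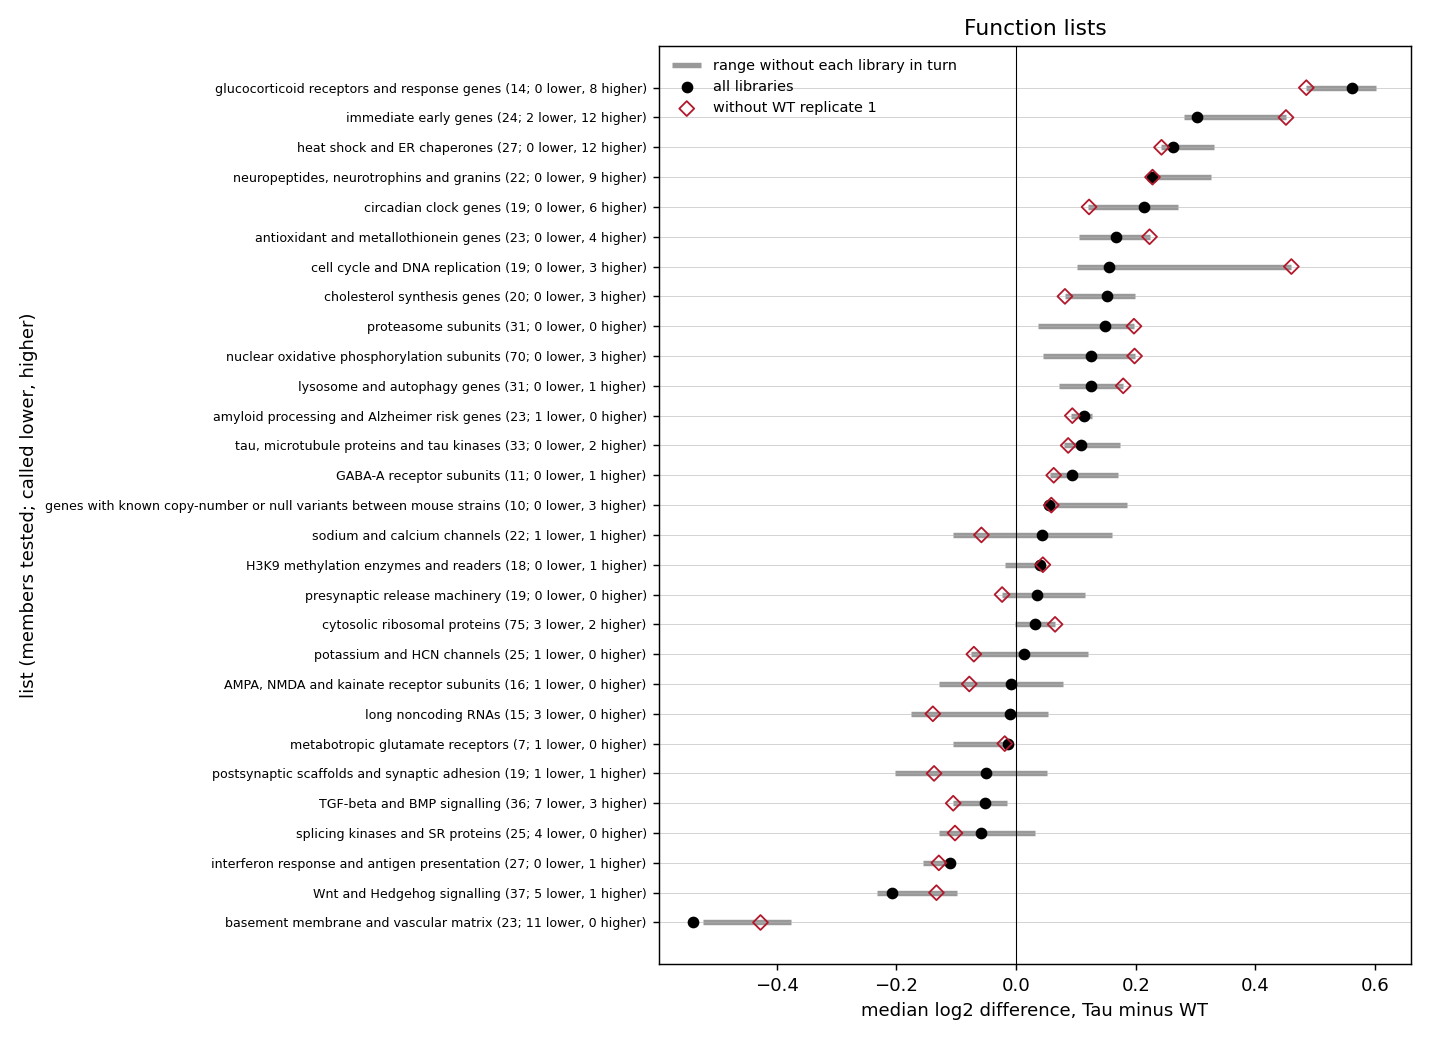
Median log2 difference, Tau minus WT, over the tested autosomal members of each of 29 function lists (x axis), with all libraries (filled circles), without the library labelled WT replicate 1 (diamonds) and over the 4 fits that leave out 1 library (bars). Labels give the members tested and the numbers called lower and higher; glucocorticoid, immediate early and chaperone lists lie highest and the list of basement membrane and vascular matrix lowest.

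Matrix and vessel genes went the other way. The basement membrane is the sheet of collagens and laminins around brain vessels, and 11 of 23 genes of basement membrane and vascular matrix were called lower and 0 higher, with a median of −0.54, the lowest of the function lists. The called genes were Col4a2, Col4a4, Col6a1, Col6a2, Lama4, Lama5, Nid1, Nid2, Hspg2, Agrn and Fn1. Hspg2, the proteoglycan perlecan, was at 8.08 and 7.42 CPM in WT and 3.36 and 2.92 CPM in Tau libraries (−1.29 ± 0.21, edgeR, adjusted p = 0.0529). Col6a1 was at 55.9 and 61.1 CPM against 37.9 and 39.6 CPM (−0.60 ± 0.10). The groups did not overlap for Hspg2 or Col6a1, as in 1161 of the 1198 autosomal genes called lower. Lama4 and Lama5, laminin chains of the vessel wall, differed by −0.80 ± 0.23 and −0.78 ± 0.21. Without the library labelled WT replicate 1 the median was −0.43, with 9 called lower and 1 higher.

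Among the 17 endothelial genes 6 were called lower (Cldn5, Flt1, Tek, Kdr, Slco1a4 and Abcb1a) and 2 higher, with a median of −0.31. Kdr, the main receptor of VEGF, was at 13.9 and 16.6 CPM in WT and 9.65 and 8.02 CPM in Tau libraries (−0.78 ± 0.18). The transporters Slc2a1, for glucose, and Mfsd2a, for lysophospholipids, were called higher, by 0.44 ± 0.13 and 0.46 ± 0.13, so the endothelial genes did not move as a block. The summed level of the list was 405 and 406 CPM in WT and 349 and 355 CPM in Tau libraries. Leaving out the library labelled WT replicate 1 gave 5 endothelial genes called lower and 2 higher, with a median of −0.28. Of 12 genes of pericytes and smooth muscle 3 were called lower, among them Vtn, vitronectin (64.2 and 50.2 CPM against 41.5 and 38.0 CPM), and Notch3, and 1 was called higher, Abcc9, against 2 lower and 1 higher without the library labelled WT replicate 1. Hbb-bs, a beta globin of red blood cells, was at 37.8 and 40.2 CPM in WT and 25.1 and 23.2 CPM in Tau libraries (−0.69 ± 0.16) and was the only one of 5 red blood cell genes called, and 1 was called without the library labelled WT replicate 1. The globin copies are nearly identical, so the division of reads among them is uncertain. The amount of blood or of vessels in the tissue pieces was not tested as a cause of these values.

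The meningeal list gave a different picture by library. Of 18 genes of meningeal and perivascular fibroblasts 6 were called lower and 0 higher, with a median of −0.53, and Crabp2, Fmod, Slc13a4 and Slc6a13 had the smallest p-values. The summed level was 411 CPM in the library labelled WT replicate 1, 625 CPM in WT replicate 2, 464 CPM in Tau replicate 1 and 343 CPM in Tau replicate 2, so that the groups overlapped. The median was −0.73, with 10 called lower, without the library labelled WT replicate 1 and −0.10 without WT replicate 2. The part of meninges left on the tissue was not tested.

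Signalling lists held both directions. Of 37 Wnt and Hedgehog genes 5 were called lower (Wnt5a, Wnt7a, Fzd6, Frzb and Hhipl1) and 1 higher, Fzd4, a receptor of the vascular Wnt pathway, by 0.58 ± 0.16. Of 36 genes of TGF-beta and BMP signalling 7 were called lower and 3 higher. The lower ones were the receptor Tgfbr2, the latent TGF-beta binding proteins Ltbp2, Ltbp3 and Ltbp4 and the ligands Bmp4, Bmp5 and Bmp6. Ltbp3 was at 10.5 and 11.1 CPM in WT and 6.58 and 5.84 CPM in Tau libraries (−0.79 ± 0.18), whereas Ltbp2 was at 2.52 CPM in the library labelled WT replicate 1 and 0.47 CPM in WT replicate 2 against 0.07 and 0.23 CPM. The higher ones were Smad3, Tgfbr1, the type I receptor (0.50 ± 0.13), and Id4, a target of BMP (0.50 ± 0.12). Leaving out the library labelled WT replicate 1 gave 4 Wnt and Hedgehog genes called lower and 1 higher, and 4 TGF-beta and BMP genes lower and 3 higher.

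Myelin and striatal lists had high medians that moved with single libraries. Of 17 genes of mature oligodendrocytes 5 were called higher, with a median of 0.67. The median was −0.19 without Tau replicate 2 and 0.30 without WT replicate 2, while without the library labelled WT replicate 1 it was 1.13, with 14 called higher. Mobp, a myelin protein, was at 439 and 212 CPM in WT, 328 CPM in Tau replicate 1 and 1038 CPM in Tau replicate 2, and Mbp, myelin basic protein, at 1065, 535, 770 and 2001 CPM. In both genes Tau replicate 1 lay between the WT libraries. Of 11 striatal genes 8 were called higher, with a median of 0.70, which was 0.15 without Tau replicate 2 and 0.90, with 4 called higher, without the library labelled WT replicate 1. Drd1, a dopamine receptor, was at 19.6 and 15.9 CPM in WT and 23.0 and 36.9 CPM in Tau libraries. Gpr17, a receptor of committed oligodendrocyte progenitors, did not follow the mature genes, with 20.5 and 18.1 CPM in WT and 29.3 and 26.9 CPM in Tau libraries (0.54 ± 0.13).

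Calls among genes of the synapse and of excitability are set beside the 3.72% higher and 6.1% lower of all genes tested. In the highest tertile of expression the shares were 5.4% higher and 1.73% lower. Of 11 GABA-A receptor subunits 1 was called higher and 0 lower, and all 11 lay above 0. Their median was 0.09, and 0.06 without the library labelled WT replicate 1. Of 16 AMPA, NMDA and kainate receptor subunits 1 was called lower, Grin2c (−0.30 ± 0.11), and 0 higher, and of 7 metabotropic receptors 1 was called lower, Grm2, a presynaptic autoreceptor (−0.39 ± 0.13). None of 19 genes of the presynaptic release machinery was called, and of 25 potassium and HCN channels and 22 sodium and calcium channels 3 were called in all: Kcna4 and Cacna1g lower and Scn4b, which was highest in Tau replicate 2 (134 CPM against 77.7 to 93.4 CPM), higher. Among 19 postsynaptic scaffold and adhesion genes, Homer1, whose short form is induced by activity, was called higher (360 and 377 CPM against 479 and 483 CPM, 0.38 ± 0.07) and Shank1 lower (149 and 149 CPM against 121 and 94.8 CPM, −0.46 ± 0.12). The medians of the 6 lists other than the GABA-A subunits lay between −0.05 and 0.04. They lay between −0.14 and −0.02 without the library labelled WT replicate 1, and 4 of the postsynaptic genes were called lower and 1 higher, 2 sodium and calcium channels lower, and 1 gene lower in each of the metabotropic, presynaptic and potassium channel lists.

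Genes of tau and of the enzymes that UNC0642 inhibits are also set beside the 3.72% called higher and 6.1% called lower of all genes tested. Of 33 genes of tau, microtubule proteins and tau kinases 2 were called higher, Stmn4 (0.27 ± 0.09) and Tubb2b (0.27 ± 0.10). Without the library labelled WT replicate 1, 3 were called higher and 1 lower: Mapt, at 0.23 with all libraries, was then called at 0.42 (edgeR, adjusted p = 0.17), and Stmn4, at 0.23, was not called. Of 23 genes of amyloid processing and Alzheimer risk 1 was called lower, Cd2ap (−0.31 ± 0.13). Ehmt2, which encodes the H3K9 methyltransferase G9a, differed by −0.10 ± 0.10 and Ehmt1, its partner, by −0.03 ± 0.10, and neither was called. Of 18 H3K9 methylation enzymes and readers 1 was called higher, the demethylase Kdm7a (0.30 ± 0.11). None of the amyloid or H3K9 genes was called without the library labelled WT replicate 1.

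The glial and housekeeping lists taken up here had medians from −0.11 to 0.21, and the calls of several depended on the library labelled WT replicate 1. Among 14 microglial genes Tmem119, C1qa and Ctss were called higher, by 0.42 ± 0.14, 0.38 ± 0.11 and 0.31 ± 0.10, with a median of 0.21, as for the clock genes. The summed level of the microglial list was 440 and 466 CPM in WT and 517 and 529 CPM in Tau libraries. Both Tau libraries thus lay above both WT libraries. Of 12 genes of disease-associated microglia 1 was called higher, Cd9, with the higher Tau value in Tau replicate 2. Of 15 astrocyte genes Gfap, Gjb6 (0.38 ± 0.10) and Kcnj10 (0.30 ± 0.09) were called higher, and Etnppl, a lyase of adult astrocytes, lower, from 4.69 and 4.65 CPM to 2.54 and 2.86 CPM (−0.80 ± 0.20). Of 27 interferon and antigen presentation genes 1 was called, B2m, the light chain of MHC class I (0.42 ± 0.11). The medians of the 70 oxidative phosphorylation genes, 31 proteasome subunits and 31 lysosome and autophagy genes were 0.13, 0.15 and 0.13, with 3, 0 and 1 called higher and 0 lower in each. These medians were 0.20, 0.20 and 0.18 without the library labelled WT replicate 1, with 10, 8 and 4 called higher and 0 lower. Cholesterol synthesis had 3 of 20 called higher, among them Fdft1 (0.35 ± 0.09) and Msmo1 (0.33 ± 0.08), and 3 without the library labelled WT replicate 1. In the same fit 3 microglial genes and 1 of disease-associated microglia were called higher, 1 astrocyte gene higher and 2 lower, and 2 interferon and antigen presentation genes higher.

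With all libraries, the genes of RNA processing that were called were lower. Of 25 splicing kinases and SR proteins 4 were called lower: Rsrp1 (223 and 237 CPM against 171 and 185 CPM, −0.37 ± 0.08), Snrnp70 (−0.36 ± 0.10), Luc7l3 (−0.29 ± 0.10) and Srsf5 (−0.27 ± 0.11). Of 15 long noncoding RNAs of the nucleus and of neurons 3 were called lower, Snhg11, Meg3 and Miat. Meg3, a maternally expressed RNA, was at 994 and 1148 CPM in WT and 671 and 852 CPM in Tau libraries (−0.49 ± 0.12), and Miat at 144 and 185 CPM against 104 and 126 CPM (−0.52 ± 0.13). Tau replicate 1 had the lowest value for all 3, as it had for the share of TEC genes. The 25 splicing genes averaged 6.73 and 6.81 log2 CPM in WT and 6.58 and 6.78 in Tau replicates 1 and 2, so the groups overlapped. Their median log2 difference was −0.06 with all libraries and 0.03 without Tau replicate 1. When the library labelled WT replicate 1 was left out, 6 of the splicing genes were called lower and 0 higher, and 5 of the long noncoding RNAs lower and 1 higher.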

How the data were processed

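RNA from PFC tissue was sequenced on an Illumina instrument after ribosomal RNA depletion, with a stranded kit. The authors trimmed reads with Cutadapt, aligned them with TopHat2 (to RefSeq mRNAs, as they state; per the labels the build was mm10) and deposited raw counts per gene from featureCounts. The strand setting of the counting was not given in the sources used here. Dates stood in place of 26 gene names in both the WT replicate 2 and the Tau replicate 2 table, and these genes were joined by position. Gene types and coordinates came from GENCODE M21 (GRCm38), matched by symbol.

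Counts were analysed with edgeR 4.0.16 (R 4.3.3). Low genes were removed by filterByExpr (minimum count 10, minimum total 15), libraries were scaled by TMM (0.966 to 1.04), and a quasi-likelihood model with 3 group means was fitted to all 6 libraries, which left 3 residual degrees of freedom. Tau minus WT was tested, with Benjamini-Hochberg adjustment over the 20409 genes left. Calls at the study's threshold needed an unadjusted p under 0.05 and a fold of 1.2 or more. The SE given with a fitted log2 difference is its absolute size divided by the square root of the F statistic of its test. The log2 CPM used a prior count of 2. The procedure was tested on simulated counts. The members, the gene lists and the tests were chosen with earlier results of these data known, and lists were described without a test. Named genes were those with an adjusted p under 0.05 and those with the smallest p-values in each tertile of expression and in each list. Those with the smallest p-values among genes not annotated as protein-coding were named too, as were Mapt, Prnp, Ehmt1, Ehmt2, Xist and Ddx3y. Hosts of noncoding genes, the olfactory genes and called list members given by name alone were added after their values were seen. Alternatives were other scalings (DESeq2 1.42.0 size factors, library size), filters, tests (DESeq2, limma 3.58.1 voom), fold thresholds, the 4 libraries alone, a replicate block and each library left out.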

Additional observations from a re-analysis of the deposited data

How the results depend on the processing

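With 2 mice per group the adjusted counts moved with most choices, and whether more genes rose or fell turned with no filter on low counts and without WT replicate 2. The 6 genes that fell and 23 that rose with all libraries became 348 and 279 with no filter on low counts, 44 and 101 with the DESeq2 Wald test, and 2 and 2 with the 4 WT and Tau libraries alone, which leaves fewer libraries to estimate the spread; 10 rose with scaling by library size alone. Without each library in turn 2 to 77 fell and 5 to 50 rose. Among genes called at the study's threshold, 1825 were lower with no filter and 716 with the DESeq2 Wald test, and 402 were higher with scaling by library size, 205 with a fold change of at least 1.5 and 1181 with no fold threshold; without each library in turn 924 to 1116 were lower and 604 to 979 higher. The share of genes called lower among those that are not protein-coding was 6.30% with no filter, where many more low genes were tested (of the 5370 genes tested with the filter 858, 16.0%, were then called lower), 6.05% with the DESeq2 Wald test and 6.01% to 13.2% without each library. The cause of these shifts was not tested.

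Replicate numbers do not pair the mice. Deviations of same-numbered libraries from their group means correlated at −0.0344 between WT and Tau, and a replicate block gave 3 genes that fell and 11 that rose. All 29 adjusted genes kept their sign and their call at the study's threshold in each alternative that tested them. The filter of at least 10 counts in every library tested 28 of them and left out Gm5879.

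Of 159 named genes, 9 values under 12 alternatives changed sign. Ctnna2 was at −0.0256 with scaling by library size alone, and each other value came from a fit that left 1 library out. Over these 4 fits the log2 difference ran from −4.09 to 0.0652 for Rps3a1 and from −3.58 to 0.868 for Th, the highest value of both being that without the library labelled WT replicate 1. Prnp ran from −0.131 without WT replicate 2 to 0.789 without the library labelled WT replicate 1, Ehmt1 from −0.0800 to 0.0241, Ehmt2 from −0.253 to 0.0355 and Ctnna2 from −0.0262 to 0.112. The lowest value was that without Tau replicate 2 for Mbp (−0.0542 to 1.37) and the median of the myelin list (−0.189 to 1.16). Depth limits low genes: a floor of 3 counts was 0.104 to 0.170 CPM, and most genes of the lowest tertile were near a few CPM or less.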
